A study of Mus musculus with 68 samples.

Results

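The comparison described here followed the first pharyngeal arch (PA1) of mouse embryos labelled Hoxa2-/- over the step from E9.5 to E10.0. Its members were the 5 PA1 libraries labelled Hoxa2-/- at E9.5 and the 5 at E10.0, 10 of 68 libraries in all, taken by genotype, arch and stage label. The study sampled PA1 and PA2, the second arch, from E9.0 to E10.5 in 4 stages, in wildtype and Hoxa2-/- embryos of the strain CBA/Ca/J x C57BL/10, with 3 to 5 libraries per group. Arches were dissected by hand, both arches were taken from an embryo, and polyadenylated RNA was amplified with the SMART-seq v4 kit for small inputs. No treatment is named for any group, and the targeted allele is given only as Hoxa2-/-. Each library is therefore 1 arch sample of 1 embryo at 1 stage, and no embryo was followed over time. A whole dissected arch holds several cell types, so fewer cells of a type and less RNA per cell cannot be told apart in any value given here.

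PA1 is the arch from which the upper and lower jaw form. Most of its mesenchyme comes from cranial neural crest cells that carry no Hox code, wrapped around a core of mesoderm and covered by ectoderm outside and endoderm inside. Signals from the epithelium, among them FGF8 and endothelin-1, pattern that mesenchyme through nested domains of Dlx, Hand, Msx, Alx and LIM-homeobox genes. Hoxa2 is a homeobox gene that gives the second arch its identity, and it is normally silent in PA1.

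Levels are given in the CPM-like unit that the authors deposited, read counts relative to the scaled size of each library (written CPM), and differences are on the log2(CPM + 1) scale with their standard error (SE). A gene is said to have risen or fallen where limma, fitted to all 68 libraries with 1 mean per group, gave an adjusted p under 0.05. The 10 libraries held 13284038 to 16868515 reads, so that 3 reads corresponded to 0.18 to 0.237 CPM. Labels do not say more of the replicates than that they are biological. The limma p-values rest on the spread within groups over all 68 libraries, not on that of these 10 alone. That fit takes PA1 and PA2 of an embryo as independent, although their deviations from group means correlated (r from 0.222 to 0.498). Hoxa2 itself was between 0.19 and 0.628 CPM in the 10 libraries, near the 3-read level, so it cannot check the genotype in this arch. In the PA2 libraries of the same embryos Hoxa2 averaged 60.7 CPM at E9.5 and 97.7 CPM at E10.0, against 40.7 and 47.5 CPM in wildtype PA2. The genotype is accordingly given throughout as a label.

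PA1 identity was present in all 10 libraries, with the PA1 genes Barx1 at 180 CPM and Pitx1 at 33.2 CPM on average at E9.5 and 223 and 42.2 CPM at E10.0. The PA2 gene Hoxb2 averaged 0.657 and 0.246 CPM. An unlabelled division runs through the libraries of the series and is seen in genes such as Ski and Irf2bp2. Ski lay between 9.82 and 15.3 CPM and Irf2bp2 between 8.06 and 14.7 CPM in the 10 libraries, which are thus on 1 side of it. In wildtype PA1 the same step crosses that division, with Ski at 54.5 CPM on average at E9.5 and 11.6 CPM at E10.0.

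Some libraries stood apart from their group. E9.5 replicate 4 lay close to E10.0. A stage position was computed for each library from 134 genes higher and 65 lower at wildtype PA1 E10.5 than at wildtype PA1 E9.0, as the percentage of the way between those wildtype means. E9.5 replicates 1 to 5 stood at 14.8, 18.6, 21.6, 55.7 and 29.6%, and E10.0 replicates 1 to 5 at 57.0, 71.9, 63.4, 62.6 and 61.6%. E9.5 replicate 4 was thus just below the lowest E10.0 library, and the PA2 library of its embryo was also the highest of its group, at 46%. E9.5 replicate 3 was set apart by 73 genes that were more than 2 log2 units above each of the other 9 libraries, whereas the other 9 libraries had 0 to 2 such genes each. In that library Postn, Col1a1 and Lum, genes of connective tissue matrix, stood at 2507, 1822 and 921 CPM, and Upk3b, a gene of mesothelium, at 57.6 CPM against at most 1.74 CPM in the other 9. E9.5 replicate 1 had the highest summed level of heart muscle genes, and E10.0 replicate 4 the highest of red cell and yolk sac genes. The level of Xist put 4 of 5 E9.5 libraries and 2 of 5 E10.0 libraries on its higher side, so the sexes were unevenly spread. The part of these differences in the results was not tested, and results are given with and without the libraries concerned.

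**Figure D1:**
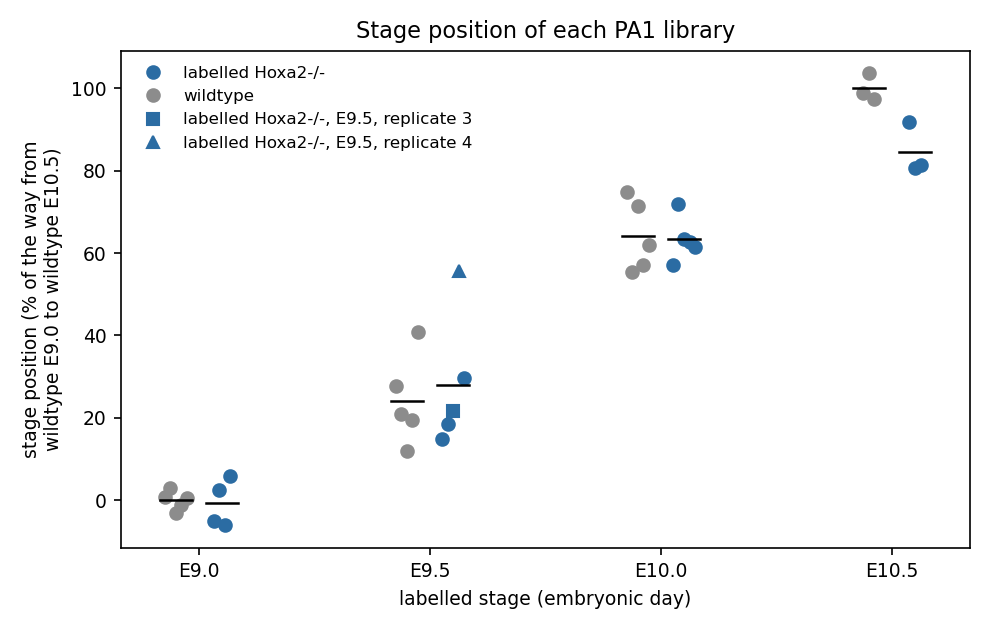
Stage position of each PA1 library (y axis, percentage of the way from the wildtype E9.0 mean to the wildtype E10.5 mean over 199 genes) by labelled stage (x axis), for wildtype in grey and the libraries labelled Hoxa2-/- in blue, with group means as black lines. Among the E9.5 libraries labelled Hoxa2-/-, replicate 4 (triangle) stands at 55.7% and the other 4 between 14.8 and 29.6%, below all E10.0 libraries of that label.

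By group, the stage position averaged 28.0 ± 16.4% (SD, n = 5) at E9.5 and 63.3 ± 5.43% (SD, n = 5) at E10.0 in the libraries labelled Hoxa2-/-. Wildtype PA1 averaged 24.2 ± 10.9% and 64.1 ± 8.57% (SD, n = 5 each) at these stages. In the E10.5 libraries labelled Hoxa2-/- the mean was 84.5 ± 6.21% (SD, n = 3). Of the 199 genes, 123 changed in the step studied here, against 4.4% of all genes, and all 123 of these moved in the wildtype direction. These positions are descriptions, without a test.

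Between E9.5 and E10.0, 811 of 18428 genes tested changed (4.4%), 345 of them higher at E10.0 (1.87%) and 466 lower (2.53%). Changes were mostly moderate, with a median size of 0.56 on the log2 scale over the 811 genes and 117 genes past 1. In 560 genes (3.04%) the 5 E10.0 libraries did not overlap the 5 E9.5 libraries, and 267 of these were among the 811, 123 higher and 144 lower. Without E9.5 replicate 4 1711 genes passed (9.28%, 4.06% higher and 5.22% lower), 810 of the 811 among them. Of those 1711 genes, E9.5 replicate 4 was nearer to the E10.0 mean than to the E9.5 mean in 87.0%, against 5.87 to 35.0% for the other E9.5 libraries, each over the genes called without it. Without E9.5 replicate 3 the count was 622 (3.38%, 1.44% higher and 1.94% lower). It fell to 375 without E9.5 replicate 1, 393 without E9.5 replicate 2 and 633 without E9.5 replicate 5. Without E10.0 replicates 2, 3, 4 and 5 it was 420, 535, 493 and 527, and without E10.0 replicate 1 it rose to 980. E10.0 replicate 1 was nearer to the E10.0 mean in 59.8% of the genes called without it, against 88.2 to 96.0% for the other E10.0 libraries. The count also rests on a spread shared across groups: a fit to the 10 libraries alone gave 89 genes, 83 of them among the 811. With edgeR on recovered reads 1053 genes passed (5.71%, 1.88% higher and 3.84% lower), 773 of the 811 among them.

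**Figure D2:**
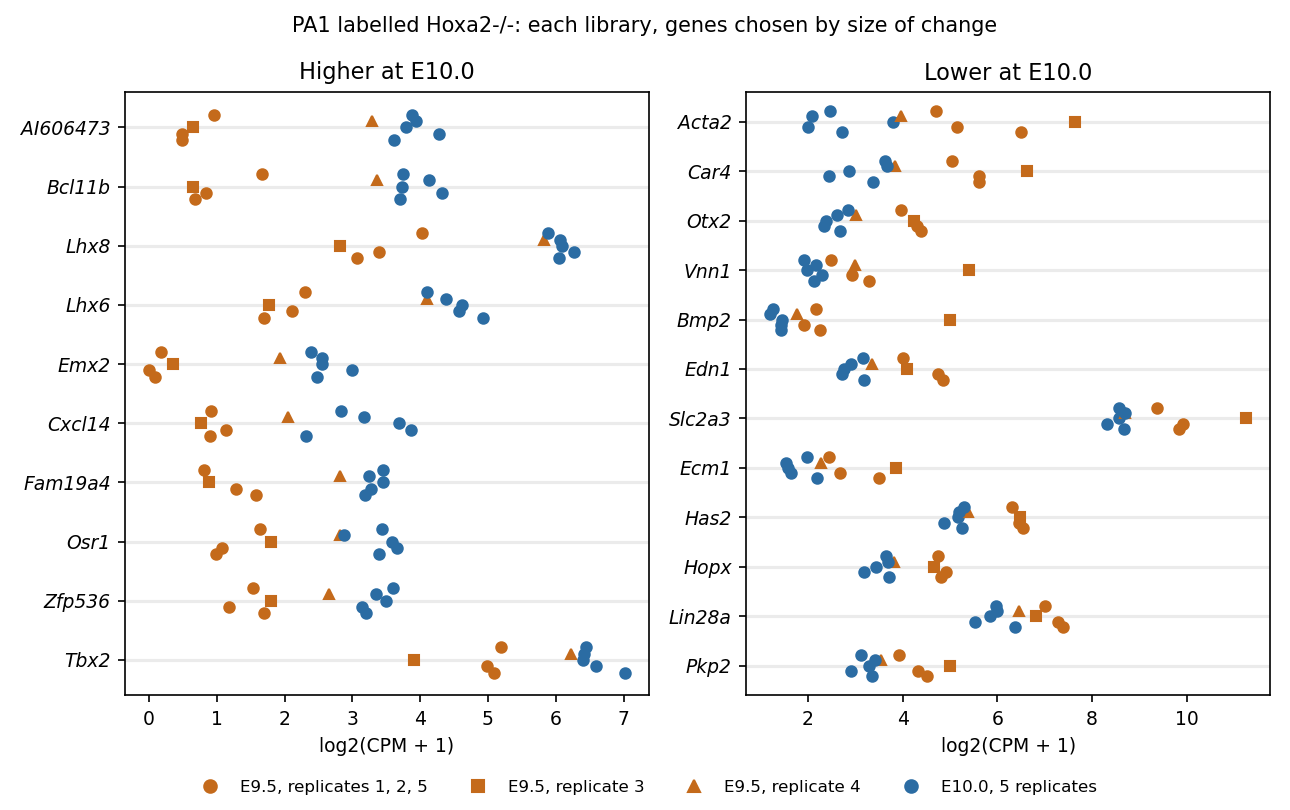
Level of named genes in each library, log2(CPM + 1) on the x axis, for genes with a great rise (left) and the 12 with the greatest fall (right) among called genes whose groups did not overlap. Orange marks are E9.5 libraries and blue circles E10.0 libraries. In the left panel E9.5 replicate 4 (triangles) lies nearest the E10.0 libraries, and in the right panel E9.5 replicate 3 (squares) is the highest library of Acta2, Car4, Vnn1, Bmp2, Slc2a3, Ecm1 and Pkp2.

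Several jaw patterning genes were among those that rose most. The LIM-homeobox genes Lhx6 and Lhx8 mark the oral mesenchyme of the jaw. Lhx6 (chr2:36081953-36105408, minus strand, mm10) stood at 2.24, 3.32, 2.4, 16.1 and 3.94 CPM at E9.5 and at 29.3, 22.8, 23.6, 19.8 and 16.1 CPM at E10.0. The highest E9.5 library and the lowest E10.0 library nearly met, and the difference was 2.12 ± 0.26 (limma adjusted p = 1.4e-07). Lhx8 (chr3:154306294-154330659, minus strand) stood at 7.39, 9.49, 6.06, 55.5 and 15.3 CPM at E9.5 and at 65.0, 76.3, 67.5, 65.6 and 58.1 CPM at E10.0. Again replicate 4 alone approached the later stage, and the difference was 2.25 ± 0.33 (limma adjusted p = 8e-06). AI606473, a non-coding transcript (chr3:154330821-154334254, plus strand), begins 161 bases from Lhx8 on the opposite strand. It rose by 2.73 ± 0.30 (limma adjusted p = 1.8e-08), from 0.396, 0.395, 0.564, 8.74 and 0.951 CPM to between 11.2 and 18.5 CPM. Whether counting used strand is not given in the sources used here, so reads of these neighbours may not be fully separated.

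In the list of distal jaw genes, 5 of 15 tested members rose and 1 fell, against 4.4% of all genes, and the median of the list was 0.34 beside 0.00 over all genes. Without E9.5 replicate 3, 3 members rose and 1 fell, against 1.44% and 1.94% of all genes, with a median of 0.19. With edgeR 4 rose and 1 fell, against 1.88% and 3.84% of all genes, with a median of 0.14. Without E9.5 replicate 4, 5 rose and 1 fell, against 4.06% and 5.22% of all genes, with a median of 0.41. Alx4, an aristaless-related gene of the distal midline mesenchyme, rose by 1.36 ± 0.25 (limma adjusted p = 0.00041). It was at 6.73, 3.4, 9.73, 7.57 and 3.33 CPM at E9.5 and at 16.5, 20.7, 17, 15.7 and 12.2 CPM at E10.0, without overlap, and here replicate 3 was the highest E9.5 library. Gsc, a homeobox gene downstream of endothelin signalling, rose by 1.06 ± 0.26, and Msx1, a BMP-responsive homeobox gene, by 0.61 ± 0.18 (limma adjusted p = 0.0095 and 0.032). The groups of both overlapped through E9.5 replicate 4. Their calls did not hold when 1 library was left out, with adjusted p = 0.071 for Gsc without E10.0 replicate 2 and 0.088 for Msx1 without E9.5 replicate 1.

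The member of the distal list that fell was Edn1, the gene of the endothelin-1 ligand. It was at 28.1, 25.7, 16, 9.26 and 15.2 CPM at E9.5 and at 8.17, 5.59, 5.82, 6.54 and 7.93 CPM at E10.0. The groups did not overlap, with replicate 4 the lowest at E9.5, and the difference was -1.26 ± 0.23 (limma adjusted p = 0.00034). Its receptor gene Ednra did not pass, at 31.3 and 34.4 CPM on average, nor did the ventral targets Hand2 (9.4 and 14.6 CPM), Hand1 (41.5 and 32.9 CPM), Dlx5 (64.2 and 59.5 CPM) and Dlx6 (7.67 and 6.97 CPM).

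Of 14 proximal and maxillary genes tested, Lhx6, Lhx8 and Dlx1 rose and none fell, against 1.87% of all genes that rose, and the median of the list was 0.30. Dlx1, a distal-less homeobox gene expressed along the whole arch, rose by 0.63 ± 0.17 (limma adjusted p = 0.018), but not without E9.5 replicate 3 (adjusted p = 0.11). Dlx2, its neighbour and partner, was at 81.3 and 95.5 CPM and did not pass. Without E9.5 replicate 4, 5 members of this list rose and 1 fell, against 4.06% and 5.22% of all genes, with a median of 0.39. Without E9.5 replicate 3, 3 members rose and none fell, against 1.44% and 1.94% of all genes, with a median of 0.16. Other transcription factor genes with a great rise were Emx2, Osr1, Tbx2, Zfp536 and Bcl11b. Emx2, a homeobox gene of the head, was at 0.066, 0, 0.282, 2.81 and 0.136 CPM at E9.5 and at 4.6, 6.97, 4.86, 4.84 and 4.25 CPM at E10.0, a difference of 2.08 ± 0.33 (limma adjusted p = 5e-05). Osr1, an odd-skipped gene of intermediate mesenchyme, rose from between 0.99 and 6.07 CPM to between 6.35 and 11.6 CPM, and Tbx2, a T-box repressor, from between 14.0 and 73.8 CPM to between 83.4 and 129 CPM. Zfp536 rose by 1.59 ± 0.22, the chemokine gene Cxcl14 by 2.03 ± 0.33 and Fam19a4 by 1.85 ± 0.26, each with groups that did not overlap.

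Genes of early development and of its timing moved in both directions. LIN28A is an RNA-binding protein of early embryonic cells that blocks the maturation of let-7 microRNAs, and let-7 in turn represses Lin28a and Trim71 through sites in their 3′ UTRs. Of 14 genes of the timing list, 4 fell (Lin28a, Trim71, Mycn and Dnmt3b) and 2 rose (Bcl11a and Bcl11b), against 4.4% of all genes. The let-7 seed and its match in these transcripts are shown because Lin28a and Trim71 fell together. In let-7a, bases 2 to 8, the seed, are in capitals, and 9 let-7 names in the RefSeq table share it. In the windows of 23 bases the match CTACCTC is in capitals.
mmu-let-7a-5p: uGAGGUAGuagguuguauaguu
Lin28a, chr4:134005185-134005207, minus strand, 3′ UTR: agcctgttgaaCTACCTCatttt
Trim71, chr9:114512468-114512490, minus strand, 3′ UTR: ttgcctaagtcCTACCTCagctt

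In the longest annotated 3′ UTR (GENCODE M21, GRCm38), Lin28a holds 2 such matches and Trim71 holds 4, the windows above being the ones nearest the stop codon. Across 21020 genes, 9.02% hold at least 1, and 10 of the 14 genes of the list do, a list that was drawn up in part from known let-7 targets. Mycn, Dnmt3b, Bcl11a and Bcl11b hold none. The libraries hold polyadenylated RNA, so let-7 itself was not measured. A match is a description of the letters and shows no regulation here.

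Lin28a was at 166, 155, 112, 86.5 and 128 CPM at E9.5 and at 81.7, 45.4, 56.3, 62.6 and 62.0 CPM at E10.0. Its groups did not overlap, and the difference was -1.05 ± 0.21 ( limma adjusted p = 0.0015). Trim71, an RNA-binding ubiquitin ligase of stem cells, was at 64.9, 63.4, 49.2, 42.8 and 62.6 CPM and then at 50.0, 29.3, 33.7, 30.1 and 37.9 CPM, with overlap, a difference of -0.64 ± 0.15 (limma adjusted p = 0.0085). Dnmt3b, a de novo DNA methyltransferase, changed by -0.56 ± 0.10 (limma adjusted p = 0.00033) from 107, 101, 83.4, 66.1 and 90 CPM to between 52.5 and 75.5 CPM. Mycn, a growth-promoting MYC family gene, changed by -0.55 ± 0.15 (limma adjusted p = 0.018), a call that did not hold without E9.5 replicate 1 (adjusted p = 0.11). The other 8 genes of the list did not pass in limma, while Igf2bp3 and Arid3b fell with edgeR (adjusted p = 0.038 and 0.048). Among them Lin28b averaged 242 and 216 CPM, Hmga2 116 and 161 CPM, and Igf2bp1 292 and 325 CPM.

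Bcl11b and Bcl11a encode zinc-finger repressors. Bcl11b was at 0.594, 0.791, 0.564, 9.26 and 2.17 CPM at E9.5 and at 12.1, 19, 12.2, 16.5 and 12.4 CPM at E10.0, a difference of 2.49 ± 0.35 (limma adjusted p = 2.8e-06). Bcl11a was at 1.06, 1.82, 2.54, 16.3 and 2.99 CPM and then at 18.5, 29.8, 18.3, 19.2 and 15.5 CPM, a difference of 2.28 ± 0.41 (limma adjusted p = 0.00033). In each gene replicate 4 was the highest E9.5 library, and only in Bcl11a did it reach into the E10.0 range. Otx2, a homeobox gene of the anterior head, moved the other way. It was at 19.9, 18.7, 17.8, 7.05 and 14.6 CPM and then at 5.42, 4.08, 4.26, 5.1 and 6.22 CPM, without overlap, a difference of -1.40 ± 0.23 (limma adjusted p = 8.5e-05).

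Among genes of glucose uptake and glycolysis, 8 of 18 fell and none rose, against 2.53% of all genes that fell, and 16 of 18 differences were negative with a median of -0.37. Those that fell were the glucose transporter genes Slc2a1 and Slc2a3, the genes of the glycolytic enzymes Gpi1, Pfkl, Pfkp, Aldoa and Pgam1, and Ldha, which encodes the lactate dehydrogenase subunit that favours lactate formation. Without E9.5 replicate 4 the count was 11, against 5.22% of all genes, and without E9.5 replicate 3 it was 9, against 1.94%. In a fit to the libraries labelled Hoxa2-/- it was 4, where 232 of 18428 genes fell. In a fit to the 10 libraries alone it was 0, where 23 of 18428 genes fell.

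Slc2a3 was at 911, 967, 2434, 416 and 658 CPM at E9.5 and at 407, 319, 378, 414 and 381 CPM at E10.0. Replicate 3 was by far the highest, replicate 4 stood just above the E10.0 range, and the difference was -1.25 ± 0.23 (limma adjusted p = 0.00041), or -0.89 without replicate 3. Slc2a1 was at 470, 354, 1026, 161 and 204 CPM and then at 183, 144, 158, 174 and 157 CPM, a difference of -1.12 ± 0.24 (limma adjusted p = 0.0021). Here replicate 4 lay within the E10.0 range. Pfkp, the platelet-type phosphofructokinase, was at 52.9, 33.2, 52.7, 14.7 and 52.9 CPM and then at 18.9, 16.6, 15.1, 16.3 and 16.8 CPM, a difference of -1.12 ± 0.19 (limma adjusted p = 0.00013). Replicate 4 was the lowest of all 10 libraries in this gene, and the other 4 E9.5 libraries were above every E10.0 library.

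Ldha was at 6136, 5315, 4314, 3663 and 4486 CPM at E9.5 and at 3388, 2890, 3643, 3652 and 3773 CPM at E10.0, a difference of -0.45 ± 0.12 (limma adjusted p = 0.025). Replicate 1 was the highest library, and replicate 4 fell among the E10.0 libraries. The calls of Slc2a1, Slc2a3 and Pfkp held without any 1 library. Those of Gpi1, Pfkl, Aldoa, Pgam1 and Ldha did not hold without E9.5 replicate 1, with adjusted p = 0.1, 0.24, 0.073, 0.22 and 0.15. That library also had the highest levels of Bnip3 (161 CPM against 20.7 to 96.4 CPM in the other 9) and Egln3 (13.9 against 4.25 to 7.4 CPM), genes known to respond to low oxygen, and the part of this in the result was not tested.

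Shown are the promoters of Slc2a1 and Ldha, fallen genes whose windows hold the letters described next, and that of Ldhb, which moved the other way. Not all fallen genes hold them. Windows run from 250 bases before to 50 bases after the start site (RefSeq, GRCm38.p6), and the letters ACGTG, the core of the hypoxia response element, are in capitals on either strand, so CACGT is marked too. Where both overlap they form CACGTG, the E-box letters to which MYC proteins also bind.
Slc2a1, chr4:119108495-119108794, plus strand: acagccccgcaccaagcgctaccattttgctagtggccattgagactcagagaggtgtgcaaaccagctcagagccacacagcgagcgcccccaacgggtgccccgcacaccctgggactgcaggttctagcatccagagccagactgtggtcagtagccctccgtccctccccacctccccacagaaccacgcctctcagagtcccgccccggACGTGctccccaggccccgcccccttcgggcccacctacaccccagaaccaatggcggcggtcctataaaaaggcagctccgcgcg
Ldha, chr7:46845554-46845853, plus strand: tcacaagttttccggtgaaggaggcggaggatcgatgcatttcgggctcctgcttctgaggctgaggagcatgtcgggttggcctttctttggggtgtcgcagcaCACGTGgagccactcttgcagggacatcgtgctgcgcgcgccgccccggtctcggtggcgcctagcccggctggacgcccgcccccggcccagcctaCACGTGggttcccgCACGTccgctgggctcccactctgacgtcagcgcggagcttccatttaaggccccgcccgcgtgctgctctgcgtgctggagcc
Ldhb, chr6:142507908-142508207, minus strand: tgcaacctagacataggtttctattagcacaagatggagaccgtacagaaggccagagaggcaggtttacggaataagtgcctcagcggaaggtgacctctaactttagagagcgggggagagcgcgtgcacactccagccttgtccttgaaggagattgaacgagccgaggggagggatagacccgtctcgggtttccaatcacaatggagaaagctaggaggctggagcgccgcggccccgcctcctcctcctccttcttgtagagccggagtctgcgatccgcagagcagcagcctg

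The Ldha window holds the letters at 3 places, 2 of them CACGTG, the Slc2a1 window at 1 place and the Ldhb window at none. Oxct1, described below, rose as Ldhb did, and its window, which is not shown, holds the letters at 1 place. Among all 32851 RefSeq windows, the share holding them was 19.6%. Of the 18 glycolysis genes, 17 had a window, and the first listed window held the letters in 8 of them. Of the 7 fallen genes with a window, it did so in 3, Slc2a1, Pgam1 and Ldha. The window of Pfkp, a fallen gene whose promoter is not shown, held none. These are descriptions of a short window and say nothing about binding.

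**Figure D3:**
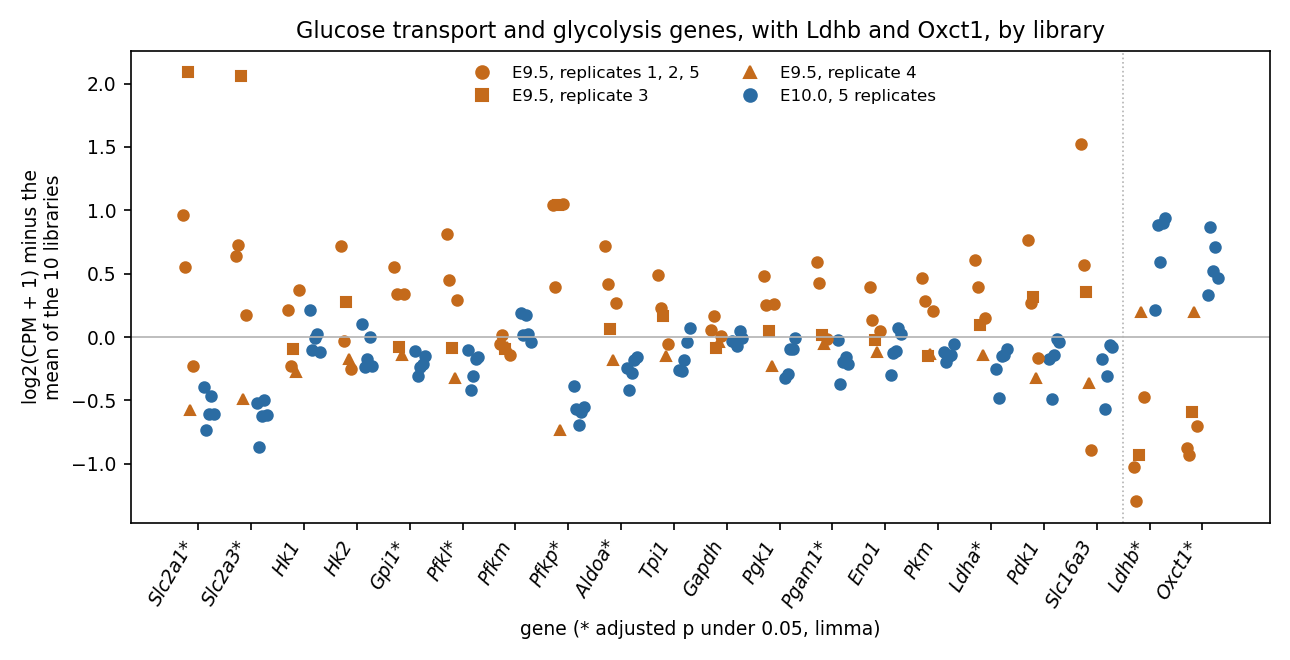
Level of each glycolysis gene, and of Ldhb and Oxct1 right of the dotted line, in each library, as log2(CPM + 1) minus the mean of the 10 libraries (y axis). Orange marks are E9.5 and blue circles E10.0. Most E9.5 libraries lie above the E10.0 libraries in the starred genes of the list, with replicate 4 (triangles) among the E10.0 libraries, and the order is turned in Ldhb and Oxct1.

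Ldhb and Oxct1 were chosen after their values were seen. Ldhb, the lactate dehydrogenase subunit that favours pyruvate formation, was at 98.1, 80.9, 104, 230 and 144 CPM at E9.5 and at 233, 370, 303, 374 and 386 CPM at E10.0. The groups did not overlap, with replicate 4 just below the E10.0 range, and the difference was 1.41 ± 0.20 (limma adjusted p = 2.8e-06). Oxct1 encodes a mitochondrial enzyme of ketone body breakdown. It rose from 28.0, 27.0, 34.4, 59.9 and 31.8 CPM to between 66.1 and 96.1 CPM, a difference of 1.16 ± 0.15 (limma adjusted p = 1.1e-06).

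The signalling lists held few changes each. In the FGF list, 2 of 16 genes rose and none fell, against 1.87% and 2.53% of all genes. These were Fgf9, a ligand gene, by 1.09 ± 0.20, and Etv4, a target of FGF signalling, by 0.85 ± 0.18 (limma adjusted p = 0.00031 and 0.0025). Fgf9 was at 0.594, 0.554, 0.705, 2.41 and 1.15 CPM and then at 2.61 to 3.72 CPM, without overlap. The main epithelial ligand Fgf8, the receptor gene Fgfr1 and the targets Dusp6 and Etv5 did not pass, with Dusp6 at 177 and 176 CPM and Etv5 at 126 CPM at each stage.

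In the WNT list, 3 of 19 rose and 1 fell, against 1.87% and 2.53% of all genes. Frzb, a secreted WNT inhibitor of the mesenchyme, was at 33.7, 40.6, 19.9, 52.0 and 32.4 CPM and then at 67.4, 65.9, 52.5, 54.0 and 61.6 CPM, just without overlap, and rose by 0.80 ± 0.16 (limma adjusted p = 0.001). Rspo2, a secreted activator of WNT signalling, rose by 0.75 ± 0.20 and Wnt5b, a ligand gene, by 0.45 ± 0.13 (limma adjusted p = 0.018 and 0.03). Neither call held when 1 library was left out, with adjusted p = 0.12 for Rspo2 without E9.5 replicate 3 and 0.11 for Wnt5b without E9.5 replicate 1. Wnt5a, a ligand gene of outgrowing mesenchyme, was at 149, 144, 120, 88.1 and 106 CPM and then at 77.1, 56.9, 69.5, 65.3 and 71.2 CPM, without overlap, a difference of -0.81 ± 0.18 (limma adjusted p = 0.0045). The general WNT target Axin2 did not pass, at 8.36 and 9.41 CPM.

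In the BMP list, 2 of 16 fell, against 2.53% of all genes, the ligand gene Bmp2 and the antagonist gene Fst, and neither call held without E9.5 replicate 3. Bmp2 was at 3.76, 2.77, 30.9, 2.41 and 3.53 CPM and then at 1.31 to 1.74 CPM. Its groups did not overlap, and the difference of -1.26 ± 0.36 (limma adjusted p = 0.028) became -0.67 with an adjusted p of 0.22 without replicate 3. Fst was at 5.28, 3.24, 18.5, 1.04 and 1.43 CPM and then at 0.754 to 1.18 CPM, a difference of -1.30 ± 0.32 (limma adjusted p = 0.0098), or -0.79 with an adjusted p of 0.097 without replicate 3. Without E9.5 replicates 3 and 4 together, an alternative chosen after seeing the data, Fst passed at -1.04 and Bmp2 did not (limma adjusted p = 0.016 and 0.14). Bmp4, the ligand gene of the distal epithelium, was at 33.9 and 27.3 CPM and the target Id1 at 126 and 106 CPM, and neither passed.

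The Hedgehog list held 1 call of 14, against 4.4% of all genes, a rise of the co-receptor gene Gas1 by 0.42 ± 0.12 (limma adjusted p = 0.038). Gas1 was at 162, 187, 215, 205 and 184 CPM and then at 258, 237, 264, 266 and 243 CPM, without overlap, although the call did not hold without E9.5 replicate 1 (adjusted p = 0.15). The targets Ptch1 and Gli1 did not pass, at 63.7 and 64.5 CPM and at 9.67 and 11.6 CPM. In the Notch list the target genes Hey1 and Hey2 fell, 2 of 13 against 2.53% of all genes, by 0.83 (SE 0.15, limma adjusted p = 0.00047) and by 0.66 (SE 0.18, limma adjusted p = 0.018) on the log2 scale. Hey1 was at 56.9, 40.1, 28.0, 20.5 and 36.1 CPM and then at 16.1 to 22.5 CPM, so that replicate 4 alone overlapped. The call of Hey2 did not hold without E9.5 replicate 1 (adjusted p = 0.1). No Notch receptor or ligand gene tested passed.

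Retinoic acid is broken down by CYP26 enzymes and carried in cells by CRABP proteins. Of 14 genes, Cyp26c1 fell and Crabp2 rose, against 4.4% of all genes that changed. Cyp26c1 was at 12.5, 16.8, 6.77, 1.5 and 11.5 CPM at E9.5 and at 0.84 to 1.71 CPM at E10.0, so that replicate 4 lay within the E10.0 range and the other 4 above it, a difference of -1.96 ± 0.33 (limma adjusted p = 0.00013). Crabp2 was at 156, 181, 160, 260 and 170 CPM and then at 221 to 308 CPM, a rise of 0.58 ± 0.13 (limma adjusted p = 0.0055). None of the receptor genes Rara, Rarb and Rarg passed.

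Matrix and skeletal genes gave few calls that held. Of 21 collagen and matrix genes, 3 fell, Hapln1, Postn and Col1a2, against 2.53% of all genes, while 18 of the 21 differences were negative and the median was -0.58. Postn, which encodes periostin, was at 95.9, 95.1, 2507, 32.2 and 85.2 CPM at E9.5 and at 25.4 to 33.3 CPM at E10.0. The difference of -2.29 ± 0.59 (limma adjusted p = 0.014) became -1.27 with an adjusted p of 0.14 without replicate 3. Col1a2, a chain of type I collagen, was at 216, 200, 1033, 109 and 156 CPM and then at 81.1 to 121 CPM, a difference of -1.34 ± 0.29 (limma adjusted p = 0.0032), or -0.81 with an adjusted p of 0.035 without replicate 3. Col1a1, the other chain, was at 1822 CPM in replicate 3 and at 8.28 to 28.6 CPM in the other 9 libraries, and it did not pass. Without replicate 3 the median of the list was -0.12, and with edgeR 10 of the 21 genes fell, against 3.84% of all genes. Hapln1, a link protein of hyaluronan, did not rest on that library: at 96.0, 70.7, 73.7, 50.0 and 71.4 CPM and then 33.5 to 43.2 CPM it did not overlap, and it fell by 0.80 (SE 0.18, limma adjusted p = 0.0046). Has2, the hyaluronan synthase of the embryo, fell as well, from 92.1, 86.5, 88.5, 40.7 and 78.7 CPM to between 28.2 and 38.3 CPM, a difference of -1.08 ± 0.19 (limma adjusted p = 0.00028).

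Of 10 skeletal fate genes tested, Nkx3-2, a homeobox gene of the jaw joint, was the 1 that rose, against 1.87% of all genes. It was at 0.132, 0, 0.141, 2.41 and 0.136 CPM at E9.5 and at 2.2, 4.65, 2.88, 2.62 and 1.59 CPM at E10.0, a difference of 1.41 ± 0.25 (limma adjusted p = 0.00021). Only replicate 4 was above the 3-read level at E9.5. Sox9 and Col2a1, genes of cartilage, did not pass, at 109 and 104 CPM and at 269 and 371 CPM.

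Proliferation genes gave few calls, none of them stable to leaving out 1 library. None of 18 mitosis genes and none of 13 cell-cycle inhibitors and exit genes passed, and of 18 DNA replication genes 2 fell, against 2.53% of all genes, Mcm4 by 0.21 and Orc1 by 0.27 on the log2 scale. Neither of these calls held when 1 library was left out (adjusted p = 0.093 for Mcm4 without E9.5 replicate 1 and 0.11 for Orc1 without E9.5 replicate 2). With edgeR 0 of the 18 mitosis genes passed too. The medians of the 3 lists lay between -0.06 and 0.04. Among 15 imprinted genes, Ndn rose by 0.58 ± 0.12 and Phlda2, a placental growth inhibitor, changed by -1.19 ± 0.29 (limma adjusted p = 0.0025 and 0.0088), 2 calls against 4.4% of all genes. Phlda2 was at 6.86, 6.09, 4.72, 2.02 and 2.38 CPM and then at 0.817 to 1.64 CPM, without overlap, a call that did not hold without E9.5 replicate 1 (adjusted p = 0.057). None of 5 Hox genes tested passed in limma, and 2 of them fell with edgeR, against 3.84% of all genes.

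Markers of the cell types that a dissected arch can hold were summed in each library. In 10 lists, 0 gave an adjusted p under 0.05 in the exact 2-sided permutation test over 5 against 5 libraries, whose smallest p is 0.0079. Heart muscle genes had the lowest unadjusted p, while several other lists shared their adjusted value. Their sum was 108, 37.8, 46.1, 16.4 and 21.9 CPM at E9.5 and 11.1, 7.92, 9.6, 4.71 and 8.95 CPM at E10.0, without overlap (exact p = 0.0079, adjusted 0.079), and all 9 differences were negative. Such levels are low beside the arch's own genes, with Actc1 at 11.1 and 0.84 CPM on average. None of the 9 genes passed in limma and 2 fell with edgeR, against 3.84% of all genes. Acta2, a smooth muscle actin that is also expressed in early heart muscle, was at 89.4, 34.6, 199, 14.5 and 25.0 CPM and then at 5.56, 3.02, 13.0, 3.27 and 4.5 CPM, a difference of -2.97 ± 0.80 (limma adjusted p = 0.02), or -2.46 with an adjusted p of 0.09 without E9.5 replicate 3. Its call was also lost without E9.5 replicate 1 (adjusted p = 0.077) and without E10.0 replicate 2 or 4 (adjusted p = 0.063 and 0.055). The part of the heart muscle genes in that difference was not tested.

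**Figure D4:**
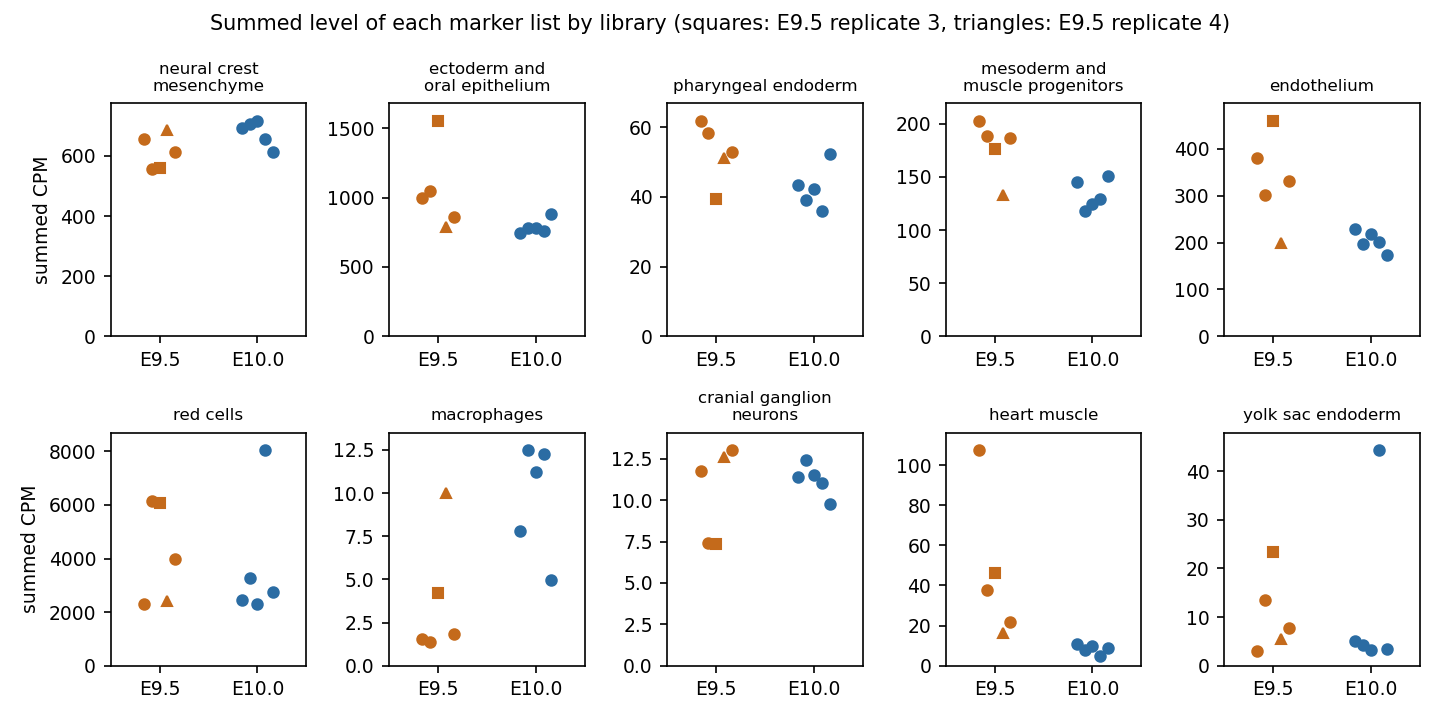
Summed CPM (y axis, from 0) of each of 10 marker lists in the 5 E9.5 libraries (orange) and the 5 E10.0 libraries (blue). Heart muscle sums do not overlap between the stages (16.4 to 108 against 4.71 to 11.1 CPM), and the red cell and yolk sac sums are highest in 1 E10.0 library, replicate 4.

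Endothelial genes summed to 381, 301, 460, 199 and 332 CPM at E9.5 and 228, 196, 218, 202 and 174 CPM at E10.0 (exact p = 0.032, adjusted 0.079), so that replicate 4 alone fell into the E10.0 range. All 10 differences were negative, and 2 genes fell, against 2.53% of all genes. These were the angiopoietin receptor gene Tek, by 1.19 (SE 0.27, limma adjusted p = 0.0049), and the VEGF receptor gene Flt1, by 0.82 (SE 0.19, limma adjusted p = 0.006) on the log2 scale. Tek was at 261 CPM in replicate 3 and at 28.5 to 73.4 CPM in the other 9, and without replicate 3 its adjusted p was 0.053. Macrophage genes, which mark cells that enter the embryo at these stages, summed to 1.52, 1.34, 4.23, 9.98 and 1.83 CPM and then to 7.82, 12.5, 11.2, 12.2 and 4.95 CPM (exact p = 0.032, adjusted 0.079). All 9 of their differences were positive, and Csf1r, C1qb and C1qc rose, against 1.87% of all genes, from levels near 3 reads at E9.5. None of these 3 passed with edgeR (edgeR adjusted p = 0.14, 0.083 and 0.051), while 1 other macrophage gene rose there, against 1.88% of all genes. None of the 3 calls held without E9.5 replicate 1.

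Mesoderm and muscle progenitor genes summed to 133 to 203 CPM at E9.5 and 118 to 151 CPM at E10.0 (exact p = 0.024, adjusted 0.079). Mef2c, a muscle and endothelial regulator, was the 1 gene of 9 that fell, against 2.53% of all genes. Its call did not hold without E9.5 replicate 1 (limma adjusted p = 0.2) or without 6 other single libraries. Ectoderm and oral epithelium genes summed to 785 to 1554 CPM and 742 to 878 CPM (exact p = 0.04, adjusted 0.079), with replicate 3 the highest. Pharyngeal endoderm genes summed to 39.4 to 61.9 CPM and 36.1 to 52.3 CPM (exact p = 0.079, adjusted 0.11). Pax1, a gene of the pouch endoderm, fell among them, from 13.9, 9.57, 7.96, 2.87 and 11 CPM to between 1.57 and 4.58 CPM, a difference of -1.34 ± 0.26 (limma adjusted p = 0.0006). Neural crest mesenchyme genes summed to 555 to 685 CPM and 612 to 717 CPM (exact p = 0.079, adjusted 0.11). In that list Twist2 rose by 1.30 ± 0.25 and Prrx1 by 0.71 ± 0.19 (limma adjusted p = 0.00079 and 0.021), against 1.87% of all genes. The crest marker genes Pdgfra and Snai2 did not pass. The call of Prrx1 did not hold without E9.5 replicate 3 (adjusted p = 0.1) or without 4 other single libraries, and over the list 6 differences were positive and 5 negative, with a median of 0.02. Sox10 and Foxd3, genes of migrating crest, were low at both stages, at 1.07 and 0.281 CPM and at 0.0136 and 0.0654 CPM. Red cell, cranial ganglion and yolk sac sums gave unadjusted exact p = 0.83, 0.52 and 0.96. All 10 red cell differences were negative too, and none of these genes passed, so a shared sign within a list is not by itself a result.

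Further genes with a great fall belong to varied functions. Car4, a membrane carbonic anhydrase, was at 47.7, 48.0, 98.4, 13.4 and 32.1 CPM and then at 9.4, 4.46, 6.3, 11.7 and 11.4 CPM, a difference of -2.15 ± 0.38 (limma adjusted p = 0.00028). Hopx, a homeodomain protein without DNA binding, changed by -1.05 ± 0.26, Ecm1, an extracellular matrix protein, by -1.17 ± 0.25, and Pkp2, a desmosome component, by -1.04 ± 0.23 (limma adjusted p = 0.01, 0.0025 and 0.0041). Vnn1, a pantetheinase, was at 41.4 CPM in E9.5 replicate 3 and at 4.62 to 8.78 CPM in the other E9.5 libraries. Its difference of -1.32 ± 0.33 (limma adjusted p = 0.012) was -0.82 with an adjusted p of 0.11 without that library.

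PA2 of the same embryos went through the same step with 843 of 18428 genes changed (4.57%), 321 higher (1.74%) and 522 lower (2.83%). Of the genes called, 263 were shared, all of them in the same direction, which is 32.4% of the PA1 calls and 31.2% of the PA2 calls. These were 112 that rose and 151 that fell. The arches come from the same 10 embryos, so they are no independent replication of the stage step, and E9.5 embryo 4 lies near E10.0 in both. Bcl11b was among those that rose in both, by 2.07 ± 0.35 in PA2 (limma adjusted p = 0.00013), and Otx2, Edn1 and Has2 among those that fell, with PA2 differences of -0.92, -1.13 and -1.36 (limma adjusted p = 0.01, 0.0014 and 1e-05). Slc2a3 fell in PA2 by 0.80 on the log2 scale (limma adjusted p = 0.03), and 7 of the 18 glycolysis genes did so. In the FGF list, 9 of 16 genes fell in PA2 and none rose.

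The step itself differed between the arches in 17 genes (0.0923% of 18428), 15 with the more positive change in PA1 (0.0814%) and 2 in PA2 (0.0109%). With the embryo as a block over all libraries 26 genes differed, 16 of the 17 among them. With edgeR 0 genes passed (738 at an unadjusted p under 0.05, against 707 in limma), and only 2 genes did with a pseudocount of 0.25. Without both arches of E9.5 embryo 4, 73 genes passed, and the 17 were all among them. Leaving out 1 library at a time gave from 5 genes, without PA1 E9.5 replicate 1, to 53, without PA2 E9.5 replicate 4. Of the 17, 16 are named here, including those outside the rule on size.

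**Figure D5:**
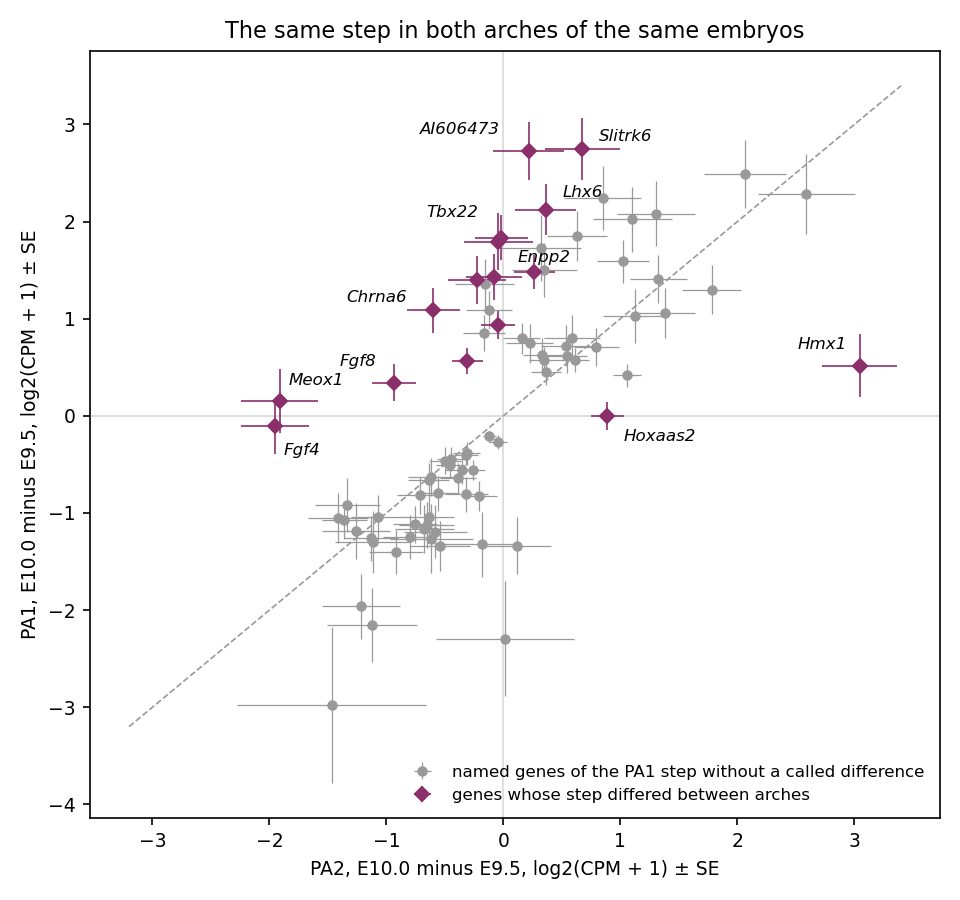
Difference between E10.0 and E9.5 on the log2(CPM + 1) scale in PA2 (x axis) and in PA1 (y axis) of the embryos labelled Hoxa2-/-, with SE as bars and the line of equal change dashed. Diamonds are 16 genes whose step differed between the arches, from AI606473 (2.73 in PA1 and 0.22 in PA2) to Hmx1 (0.52 and 3.04). Grey circles are the other named genes that changed in PA1.

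Tmem59l (chr8:70483867-70487358, minus strand) differed by 1.62 ± 0.35 (limma adjusted p = 0.034). It was at 4.95, 4.51, 1.62, 8.87 and 5.91 CPM and then at 11.5 to 17.5 CPM in PA1, and at 2.08 to 6.95 and 1.89 to 5.43 CPM in PA2.

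The jaw genes Lhx6 and Tbx22 and the non-coding AI606473 were low in PA2 at each stage. Lhx6 differed by 1.76 ± 0.37 (limma adjusted p = 0.027), with 1.96 to 4.53 CPM in PA2 at E9.5 and 3.16 to 4.83 CPM at E10.0. Tbx22, a T-box gene of the palate, was at 0, 0.0791, 0.141, 1.96 and 0.0679 CPM in PA1 at E9.5, at 2.27, 7.22, 4.32, 3.01 and 2.92 CPM at E10.0, and at most at 0.278 CPM in PA2. Its step differed by 1.85 ± 0.32 (limma adjusted p = 0.0025). AI606473 differed by 2.51 ± 0.42 (limma adjusted p = 0.0017), whereas for its neighbour Lhx8 the difference of 1.40 ± 0.47 did not pass (limma adjusted p = 0.75).

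Slitrk6, a neuronal membrane protein gene, was at 0.264, 0.712, 0.211, 7.96 and 0.815 CPM and then at 6.93, 22.0, 17.5, 13.7 and 10.7 CPM in PA1, against 0.245 to 2.66 and 1.49 to 3.71 CPM in PA2, a difference of 2.07 ± 0.45 (limma adjusted p = 0.037). Enpp2, the enzyme autotaxin, rose in PA1 from 16.5, 13.0, 16.4, 66.9 and 24.2 CPM to between 60.8 and 92.8 CPM. In PA2 it was at 19.8 to 58.9 and 17.8 to 52.8 CPM, and the steps differed by 1.84 ± 0.41 (limma adjusted p = 0.048). Chrna6, Zmat4, Etv1, E130114P18Rik and Gm43376 likewise rose in PA1 and did not pass in PA2.

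Other differences came from PA2. Fgf8, the ligand of the arch epithelium, was at 21.4, 30.4, 17.2, 28.1 and 23.8 CPM in PA1 at E9.5 and at 29.0, 29.5, 25.9, 30.1 and 38.6 CPM at E10.0, which did not pass. In PA2 it was at 28.7, 20.7, 20.6, 8.69 and 16.2 CPM and then at 13.8, 6.26, 7.33, 6.69 and 12.1 CPM, and the steps differed by 1.28 ± 0.27 (limma adjusted p = 0.027). Fgf4, another FGF ligand, had 0 to 0.34 CPM in the PA1 libraries and fell in PA2 from 20.8, 20.8, 19.2, 3.88 and 14.2 CPM to between 0.831 and 6.39 CPM. With PA1 near 0 the sign of its difference depended on the tool, at 1.85 in limma (adjusted p = 0.047) and -1.23 in edgeR. Meox1, a homeobox gene of mesoderm, was at most at 0.96 CPM in PA1 and fell in PA2 from 8.69, 8.91, 16.3, 1.01 and 7.64 CPM to between 0.678 and 1.54 CPM. Hmx1, a homeobox gene of the ear and eye region, rose in PA2 from 0, 0.0817, 0.0726, 8.84 and 0.208 CPM to between 8.61 and 18.1 CPM, and the PA1 step minus the PA2 step was -2.53 ± 0.45 (limma adjusted p = 0.0033). Hoxaas2, an antisense transcript of the Hoxa cluster, gave -0.89 ± 0.20 (limma adjusted p = 0.048, 0.058 with the embryo block), and without known strand its reads cannot be told apart from those of the genes opposite.

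The neighbouring steps in PA1 labelled Hoxa2-/- share libraries with the step described, so their values are set side by side without a test of likeness. Lin28a went on falling, by 1.39 on the log2 scale from E10.0 to E10.5 (limma adjusted p = 0.0031), as did Trim71 by 0.94 (limma adjusted p = 0.0042) and Otx2 by 1.15 (limma adjusted p = 0.032). Tbx22 rose by a further 1.65 (limma adjusted p = 0.00055), Gsc by 1.31 (limma adjusted p = 0.03) and Frzb by 0.90 (limma adjusted p = 0.011). For Lhx8 the next step was 0.37 and did not pass.

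In wildtype PA1, whose libraries are separate, the same step gave 2.79 for Lhx6 and 2.57 for Bcl11b. It gave -1.58 for Otx2, -1.37 for Edn1, -1.17 for Lin28a, -0.61 for Slc2a3, -0.54 for Ldha and 1.57 for Ldhb. Each of these genes, picked from those named above, has the sign found in the libraries labelled Hoxa2-/-. The share with the same sign over all 811 genes called is not given here. As that wildtype step crosses the unlabelled division of the libraries, stage and division cannot be told apart there, and no difference between genotypes was tested.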

How the data were processed

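Arches were measured by low-input RNA sequencing in 68 libraries. The authors deposited a normalized signal for 21948 genes in a CPM-like unit, with column totals from 926298 to 1051959. Per the submitters' processing notes, bcl2fastq 2.18, TopHat2 2.1.1, R 3.3.2 and the mm10 build were used. The counting program, annotation and strandedness are not given in the sources used here. All values (100.0%) came out as whole reads within 0.1 reads, at most 7.9e-05 from a whole read, so reads could be recovered.

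Genes with at least 1 CPM in 3 libraries were kept (18428). On the log2(CPM + 1) scale, limma 3.58.1 (R 4.3.3) gave the differences from 1 mean for each of 16 groups and Benjamini-Hochberg adjustment over all genes kept. edgeR 4.0.16 on recovered reads was an alternative, beside other pseudocounts, filters, scalings, fits and libraries left out. The limma test was planned for CPM, and the deposited unit being a scaled signal changed no test. The limma test of the PA1 step alone was run on simulated counts, in which libraries were independent and none stood apart. The edgeR fit, the blocks and the difference between arches were not tested in that way. Summed marker levels were compared with exact 2-sided permutation tests in scipy 1.17.1, adjusted over 10 lists.

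Named genes were up to 12 in each direction with the greatest difference among those called without overlap at a mean of at least 5 CPM, leaving out symbols with a Gm number or ending in Rik, up to 6 in each direction for the difference between arches, and members of 27 lists. The members and lists were chosen with earlier results of these data known. Of 367 list genes, 348 were kept. Counts cover all genes tested, and some genes that they include are not reported here by name. Replicates of a group differed beyond counting noise, with a chi-square per degree of freedom from 5.59 to 30.0 over 20 pairs. PA1 and PA2 of an embryo share its number per the labels, and their deviations from group means correlated in 10 of 10 pairs (r from 0.222 to 0.498, median 0.370), so embryo blocks were tried as an alternative for the difference between arches, whose reported values come from the fit without them. Precision limits given in reads cover counting error only. Coordinates are from GRCm38, the assembly behind mm10.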

Additional observations from a re-analysis of the deposited data

Results flagged for a closer look

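In 12 of 70 groups of 5 libraries, 1 library lay far from the other 4 by Dixon's test at its 95% critical value. The usual rate of about 1 in 20 does not hold here. The groups share libraries, and the named genes were chosen by rule from these same libraries. E9.5 replicate 4 was the high library for AI606473 (8.74 CPM), Lhx6 (16.1 CPM), Emx2 (2.81 CPM) and Cxcl14 (3.13 CPM), and the low library for Has2 (40.7 CPM) and Hopx (13.1 CPM). E9.5 replicate 3 was the high library for Vnn1 (41.4 CPM) and Bmp2 (30.9 CPM). At E10.0, replicate 2 was high for Emx2 (6.97 CPM), replicate 5 for the summed epithelial genes (878 CPM), and replicate 4 for the summed red cell genes (8056 CPM) and yolk sac genes (44.4 CPM).

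The E9.5 to E10.0 step differed between PA1 and PA2 in 17 genes by limma's test of the difference, and 16 of them are given. The PA1 step minus the PA2 step, on the log2 scale, was 2.51 for AI606473, 2.07 for Slitrk6, 2.06 for Meox1, 1.85 for Tbx22, 1.85 for Fgf4 and 1.84 for Enpp2. It was 1.76 for Lhx6, 1.68 for Chrna6, 1.62 for Tmem59l, 1.51 for Zmat4, 1.28 for Fgf8, 1.22 for E130114P18Rik, 0.98 for Gm43376 and 0.88 for Etv1. It was -2.53 for Hmx1 and -0.89 for Hoxaas2.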

How the results depend on the processing

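The 811 genes called in PA1 became 89 in a fit to the compared groups, 448 in a fit to the libraries labelled Hoxa2-/-, 1684 without E9.5 replicates 3 and 4 and 1791 without both arches of E9.5 embryo 4, the last 2 alternatives chosen after seeing the data. Leaving out 1 library gave 375 to 1711. With the replicate number as a block, fitted to the compared groups only, 1 gene passed, beside the 89 of that fit without a block. Numbers do not pair the stages, whose embryos differ: same-numbered libraries correlated at -0.081 to 0.176, and 2 of 5 E9.5 libraries correlated best with their own number. Of 348 list genes tested, 54 were called, against 4.4% of all genes. These became 14 in the fit to the compared groups and 0 in that fit with the replicate block. Over all 18428 genes, 89 and 1 passed there. The list members called became 84 without replicates 3 and 4 and 87 without embryo 4, where 1684 and 1791 of all genes passed. With 1 library left out they became 33 to 84, beside 375 to 1711 of all genes. The 17 genes of the difference between arches became 0 with edgeR (738 at an unadjusted p under 0.05), 0 in the fit to the compared groups (754 unadjusted), 3 with the labelled libraries, 2 with a pseudocount of 0.25, 26 with the embryo as a replicate block, 73 without embryo 4, and 5 to 53 with 1 library left out. The Fgf4 difference turned to -1.23 in edgeR. The cause of these shifts was not tested. Depth limits genes below about 0.237 CPM, the level of 3 reads in the shallowest of the 10 libraries.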
